A study of Drosophila melanogaster with 3 samples.

Results

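Genes that act in the male germ line carried few peaks of the homeodomain protein OdsH at their promoters in whole prepupae, and the late spermatid genes carried none in the thresholded peak set. The gene set comprised 36 spermatogenesis genes of *Drosophila melanogaster*, listed by name from their known roles in the testis, out of 13945 protein-coding genes on the 6 chromosome arms analysed. All 36 were found in the annotation, 34 by symbol and *Mst35Ba* and *Mst35Bb* through RefSeq synonyms as *ProtA* and *ProtB*. They were divided into 14 early germline and meiotic arrest genes and 22 late spermatid genes.

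The data were chromatin immunoprecipitation sequencing (ChIP-seq) of whole white prepupae of the strain OdsH-GFP, males and females pooled. The flies stably carried OdsH with GFP at its C terminus, and an anti-GFP antibody was used. The labels give 1 group of 3 biological replicates, so no genotype, stage or sex could be compared. Every animal carried the fusion transgene, and the labels do not say which cells expressed it. Testes are a small part of a whole animal, so a site bound in few germ cells and a site not bound cannot be told apart here.

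*OdsH* is known for its part in male sterility of hybrids between *D. simulans* and a related species, and in *D. melanogaster* it acts in sperm production of young males. In the fly testis, *bam* and its partner *bgcn* end the divisions of spermatogonia. Spermatocytes then transcribe most genes needed for meiosis and sperm assembly under the control of the meiotic arrest genes. These genes encode a testis complex related to the MuvB complex (tMAC) and testis forms of the TBP-associated factors (tTAFs) of the general transcription machinery. Many of their targets are late genes, whose products build the sperm tail, the mitochondrial derivative and the compact sperm nucleus.

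The promoter regions below show an early gene with a peak beside late genes without one, each region lying between 2 genes transcribed away from each other. Capitals mark the homeodomain words TAATTA and TAATTG on either strand. The first holds the only summit of the thresholded set within 500 bp of a start site of any of the 36 genes. A summit is the base of highest signal in a peak. It separates *twe* from *CG4935* (dm6, chr2L:16261878-16262140, printed 5′ to 3′ on the minus strand so that it ends at the base before *twe*). The others are shared by late gene pairs with no peak of any list within 1000 bp, *Mst84Db* with *Mst84Da* (chr3R:7365628-7365849, plus strand) and *hale* with *schuy* (chr3L:19985869-19986092, plus strand).
twe-CG4935: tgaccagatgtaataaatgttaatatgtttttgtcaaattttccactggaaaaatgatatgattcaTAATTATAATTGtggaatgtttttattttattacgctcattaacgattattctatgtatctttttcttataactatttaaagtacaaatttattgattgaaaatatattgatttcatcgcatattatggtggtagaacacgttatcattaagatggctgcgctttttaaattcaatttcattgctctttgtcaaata
Mst84Db-Mst84Da: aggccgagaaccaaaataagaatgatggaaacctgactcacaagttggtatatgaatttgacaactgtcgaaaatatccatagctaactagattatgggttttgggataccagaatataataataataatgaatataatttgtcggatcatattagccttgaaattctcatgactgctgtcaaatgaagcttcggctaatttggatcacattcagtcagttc
hale-schuy: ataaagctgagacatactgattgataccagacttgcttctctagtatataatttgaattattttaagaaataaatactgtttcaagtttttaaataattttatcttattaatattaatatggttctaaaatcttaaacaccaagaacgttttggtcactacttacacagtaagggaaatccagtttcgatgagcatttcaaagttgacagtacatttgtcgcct
The *twe* region had 24.7% GC and held each word once, directly side by side, from 197 to 186 bp upstream of the outermost *twe* start. The 101 bp centred on the *twe* summit (chr2L:16261924-16262024) held neither word. Of such windows at all summits of the thresholded set, 10.8% held TAATTA and 11.5% TAATTG. The *Mst84Db*-*Mst84Da* region had 34.7% GC and the *hale*-*schuy* region 28.6%, and neither held a word. The words were not confined to promoters with a peak, as the counts over all 36 promoters given below show.

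At promoters, 2 of the 36 genes had a summit of the authors' set thresholded on the irreproducible discovery rate (IDR) within 1000 bp of any transcription start site (TSS), or 5.56%. Over all protein-coding genes the share was 23.0% (3209 genes). Both genes were early ones, so the count was 2 of 14 early genes (14.3%) and 0 of 22 late genes. The IDR set held 8700 peaks, of which 71.0% were overlapped by the strongest 8700 of every replicate. Each peak had a signal value given by the authors' peak caller, used here only to rank peaks within 1 list, with rank 1 the strongest. Taking each replicate's own 8700 strongest peaks, 3, 2 and 2 of the 36 genes counted in replicates 1, 2 and 3, against 26.7, 25.4 and 24.6% of all protein-coding genes. That is 6.48% ± 1.60 of the spermatogenesis genes and 25.6% ± 1.06 of all protein-coding genes (SD, n = 3). The late genes counted 0 of 22 in every replicate.

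**Figure D1:**
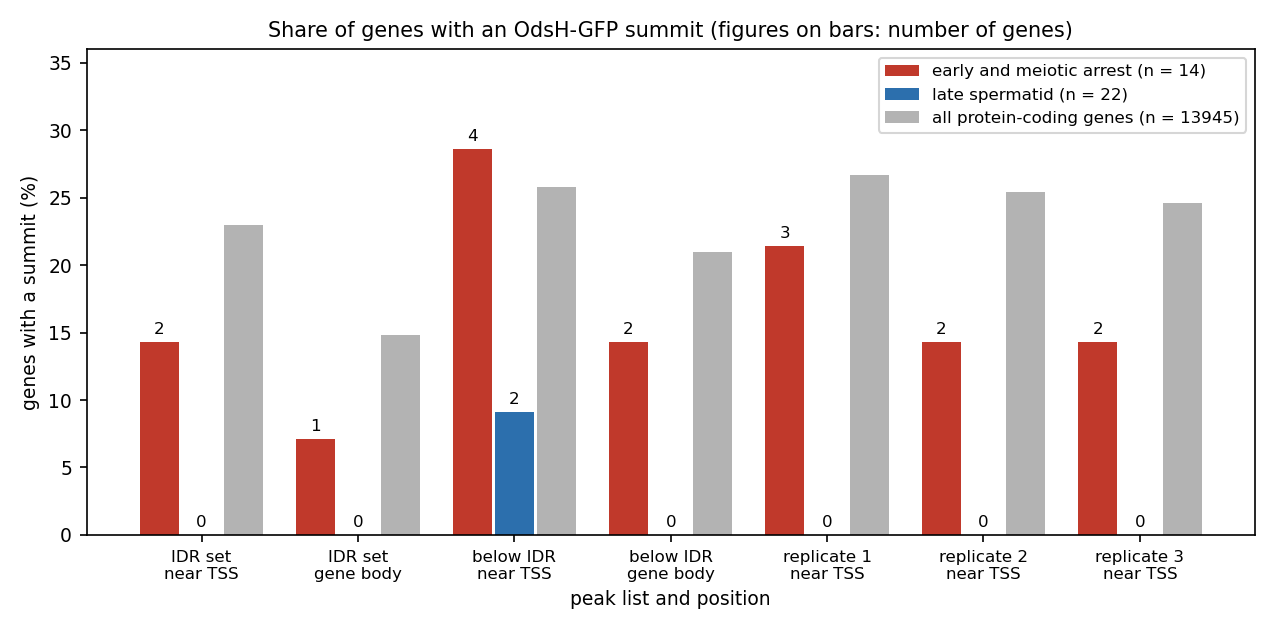
Percentage of genes (vertical axis) with a summit, by peak list and position, for 14 early and meiotic arrest genes, 22 late spermatid genes and all 13945 protein-coding genes; replicate bars use each replicate's 8700 strongest peaks within 1000 bp of a TSS. Late genes stand at 0 except for 2 genes near peaks below the IDR threshold, and the early genes lie below all protein-coding genes except in that same class.

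*twe* encodes the Cdc25-type phosphatase that starts the meiotic divisions. Its summit lay 97 bp upstream of its TSS (chr2L:16261766-16262181), in the intergenic stretch printed above, with a signal value of 132 and rank 5090 of the IDR set. The strongest peak near *twe* ranked 5868 in replicate 1, 4836 in replicate 2 and 4720 in replicate 3, at 70, 165 and 62 bp upstream. All 3 thus placed it among their 8700 strongest. *CG4935* starts 264 bp from *twe* in the opposite direction, and the region is shared by both genes.

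*can*, which encodes the testis form of TAF5, had its summit 711 bp upstream of its only TSS (chr3L:10267614-10268029). This peak was weak, with a signal value of 86.5 and rank 7893, where the IDR set ends at a signal value of 77.5. Replicates 1 and 3 ranked the strongest row near *can* at 6767 and 6859, but replicate 2 ranked it at 13953, outside its 8700 strongest. Requiring support from both remaining replicates, *can* was lost without replicate 1 or 3, which left *twe* as 1 of 36 genes (2.78%). The share of all protein-coding genes was then 18.8% without replicate 1 and 19.5% without replicate 3. The nearest TSS of another protein-coding gene, *Or67d*, was 6093 bp from that of *can*. A second weak IDR summit lay 4124 bp downstream of the *can* TSS, beyond the 3′ end of the gene (signal value 94.1, rank 7278). The windows of 101 bp centred on these 2 summits are shown in the direction of *can*, and neither holds a homeodomain word.
can, 711 bp upstream: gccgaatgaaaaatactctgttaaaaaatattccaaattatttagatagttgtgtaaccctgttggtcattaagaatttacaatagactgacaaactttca
can, 4124 bp downstream: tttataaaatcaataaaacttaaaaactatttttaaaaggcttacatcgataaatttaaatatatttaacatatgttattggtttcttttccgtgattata
They had 28.7 and 17.8% GC, against a mean of 31.8% over the windows at all IDR summits. Most of those windows lack the words too, with TAATTA in 10.8% and TAATTG in 11.5%.

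*bgcn*, which encodes a protein related to RNA helicases, differed between the lists. Replicate 1 had a peak 151 bp downstream of its TSS with a signal value of 56.1 and rank 3075, and replicate 2 had one 124 bp downstream with a signal value of 91.6 and rank 3005. Within 1000 bp of a TSS these were the highest ranks of any of the 36 genes in either replicate. Both summits lay in the 5′ UTR. Replicate 3 had no row within 1000 bp of the *bgcn* TSS among its 30000 rows, and the list pooled over the replicates had none either. The nearest IDR summit was 8517 bp away, 103 bp upstream of the translation factor gene *eIF6*, and was among the strongest of the whole set (rank 61). Such gaps occurred elsewhere: of the 8700 strongest rows, 7.02, 5.15 and 4.31% in replicates 1, 2 and 3 were overlapped by no row of the pooled list. Counting a gene when at least 2 replicates had a summit within 1000 bp among their 8700 strongest, without the pooled list, gave *twe*, *can* and *bgcn*. That is 3 of 36 (8.33%), against 25.5% of all protein-coding genes, and this rule was chosen after the lists had been compared.

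**Figure D2:**
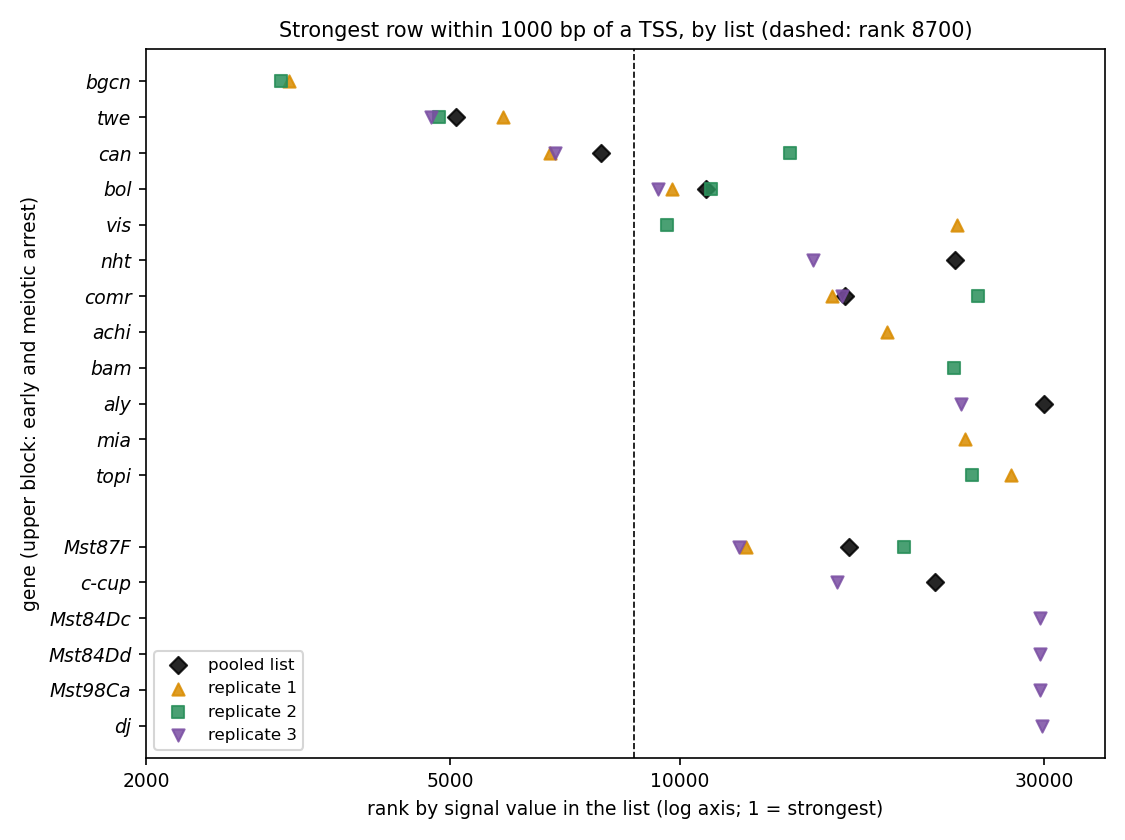
Rank by signal value (horizontal log axis, 1 is the strongest) of the strongest row within 1000 bp of a TSS in the pooled list and in each replicate's full list, for the 18 genes with a row in at least 1 list. *bgcn* has ranks of 3075 and 3005 in replicates 1 and 2 and no row in replicate 3 or the pooled list, *twe* lies left of the dashed line at rank 8700 in all 4 lists, and every late gene lies right of it.

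Inside gene bodies, *bol* alone had IDR summits, 1 of 36 genes (2.78%), against 14.8% of all protein-coding genes. *bol* encodes an RNA-binding protein required for translation of the *twe* mRNA. At 36777 bp it was the longest of the 36 genes, and it had 6 TSSs. Its 3 summits all lay in introns, with signal values of 175, 119 and 97.0. The strongest (rank 3713) stood 1185 bp downstream of the nearest TSS, just outside the window, and ranked 3063, 4607 and 3891 in replicates 1, 2 and 3. Its 101 bp window, in the direction of *bol*, had 24.8% GC and 1 TAATTG, in capitals, against 11.5% of all IDR summit windows with TAATTG.
bol, 1185 bp downstream: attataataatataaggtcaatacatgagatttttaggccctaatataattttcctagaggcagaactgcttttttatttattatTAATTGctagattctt
The pooled rows below the threshold added 12 further rows inside *bol*, and 2 inside the coding sequence of *can*. *bol* and *can* were the only 2 of the 36 genes with such a row in the body (5.56%, against 21.0% of all protein-coding genes). The 12 rows in *bol* were not all separate sites. Some overlapped each other, and chr3L:9129162-9129577 overlapped the strongest IDR peak. The number of full replicate lists overlapping a row ranged from 0 to 3.

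Below the IDR threshold the pooled list held 21300 rows, which the authors describe as peaks and background together. At this level 6 of 36 genes had a row within 1000 bp of a TSS (16.7%), against 25.8% of all protein-coding genes. With rows required in both remaining replicates the count was 3 of 36 without replicate 1, 2 or 3, against 14.8, 14.0 and 17.6% of all protein-coding genes. The 6 were the early genes *nht*, *comr*, *aly* and *bol*, and the late genes *Mst87F* and *c-cup*. Together with *twe* and *can*, 8 of 36 had any pooled row near a TSS (22.2%), against 38.6% of all protein-coding genes. The early genes made up 6 of these 8. Their share, 42.9% of 14, was close to that of all protein-coding genes, and the late share was 9.09% of 22.

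Support by the replicates separated these weak rows. At *comr*, which encodes a tMAC subunit, a row 408 bp upstream (signal value 36.4, rank 16449) was overlapped in all 3 full replicate lists. The strongest row near *comr* ranked 15840, 24531 and 16305 in replicates 1, 2 and 3. *bol* had its strongest such row near a TSS 430 bp upstream, at rank 10805, overlapped in all 3 full replicate lists. The strongest rows near a *bol* TSS in replicates 1, 2 and 3 lay 701, 177 and 522 bp upstream. They ranked 9772, 10989 and 9369 and need not mark the same site. At *nht*, the testis form of TAF4, the row 984 bp upstream was overlapped in no replicate. Replicate 3 had a separate row 554 bp upstream of *nht*, at rank 14929. At *aly*, a tMAC subunit related to Lin-9, the row 649 bp upstream was overlapped in 1 replicate and ranked 29951 of 30000. Replicate 3 ranked its row near *aly* at 23311.

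*Mst87F* was the late gene with the most support. It encodes a small protein of the sperm tail, rich in cysteine, glycine and proline. The row 117 bp upstream of its TSS, in an intron of the long non-coding RNA gene *lncRNA:CR43300*, had a signal value of 35.8 and rank 16669, and all 3 replicates overlapped it in their full lists. The strongest rows within 1000 bp ranked 12198, 19650 and 11968 in replicates 1, 2 and 3. They lay 111 bp upstream, 79 bp downstream and 817 bp upstream. A second pooled row stood 822 bp upstream (rank 20669). Farther out, IDR summits lay 3204 and 3898 bp upstream and 4877 bp downstream, with signal values of 114, 288 and 129. For each of them the nearest TSS of a protein-coding gene was that of *Mst87F*. Starts of non-coding genes were not considered. At *c-cup*, 1 of the "comet and cup" genes transcribed after meiosis, a row 226 bp upstream (rank 21587) was overlapped in 1 replicate. Replicate 3 ranked its row near *c-cup* at 16060. The 101 bp windows at the rows 117 and 226 bp upstream, in the direction of each gene, hold no homeodomain word.
Mst87F, 117 bp upstream: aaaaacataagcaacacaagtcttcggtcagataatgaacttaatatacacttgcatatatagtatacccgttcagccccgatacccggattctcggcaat
c-cup, 226 bp upstream: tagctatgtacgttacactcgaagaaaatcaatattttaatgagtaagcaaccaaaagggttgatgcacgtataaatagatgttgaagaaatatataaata

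The full replicate lists, which reach into background, were searched next. Within 1000 bp of a TSS, 10, 9 and 12 of the 36 genes had a row in replicates 1, 2 and 3, against 48.4, 45.3 and 41.9% of all protein-coding genes. A row in all 3 was found for 5 genes (13.9%, against 30.3%), namely *can*, *comr*, *twe* and *bol* among the early genes and *Mst87F* among the late ones. The early genes counted 9, 8 and 6 of 14 (64.3, 57.1 and 42.9%), against 48.4, 45.3 and 41.9% of all protein-coding genes. The late genes counted 1, 1 and 6 of 22 (4.55, 4.55 and 27.3%). Of the 6 late genes in replicate 3, *dj*, *Mst98Ca*, *Mst84Dc* and *Mst84Dd* had rows at ranks between 29605 and 29765, at the end of that list, and *Mst84Dc* and *Mst84Dd* shared 1 row. Among the tTAF genes, *mia* had 1 weak row in replicate 1 (rank 23652) and *sa* had none. Among the tMAC genes, *topi* had weak rows in 2 replicates and *tomb* in none. The homeodomain genes *achi* and *vis*, a tandem pair whose products associate with tMAC, had rows in 1 and 2 replicates, the strongest at rank 9631. *bam* had 1 row, 24 bp upstream, at rank 22820 of replicate 2. No list had a row near 2 of the 14 early genes (14.3%), 16 of the 22 late genes (72.7%) and 38.4% of all protein-coding genes. The late ones included both protamine genes *Mst35Ba* and *Mst35Bb* and the mitofusin gene *fzo*, needed to fuse mitochondria in spermatids.

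Distance to the nearest IDR summit needs no window. Its median was 8538 bp over the 36 genes, with 6733 bp for the early and 14887 bp for the late genes, and 6244 bp over all protein-coding genes. In the replicates' 8700 strongest peaks the median was 5182 ± 1757 bp for the early genes, 16362 ± 543 bp for the late genes and 5359 ± 364 bp for all protein-coding genes (SD, n = 3). The late median exceeded that of all protein-coding genes in every replicate, at 16061, 16989 and 16036 bp against 4967, 5423 and 5687 bp. Neighbouring late genes shared a nearest IDR summit but each counted in these medians. Such were the *Mst84D* genes (17162 to 19239 bp), *hale* with *schuy* (16752 and 16527 bp) and *Mst98Ca* with *Mst98Cb* (15617 and 14157 bp). Closer pairs were *dj* with *djl* (7965 and 6514 bp) and *ocn* with *janB* (8559 and 7561 bp). The SD does not measure this, and no median over loci was calculated. The early median differed from that of all protein-coding genes by less than its spread between replicates. A distance over 5000 bp was found for 8 of 14 early genes and 19 of 22 late genes (86.4%), and for 55.4% of all protein-coding genes. *Mst35Ba* and *Mst35Bb*, adjacent on arm 2L, were the most remote at 113633 and 111564 bp. *d-cup* followed at 65699 bp and *loopin-1*, of the sperm leucyl aminopeptidase family, at 43934 bp.

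**Figure D3:**
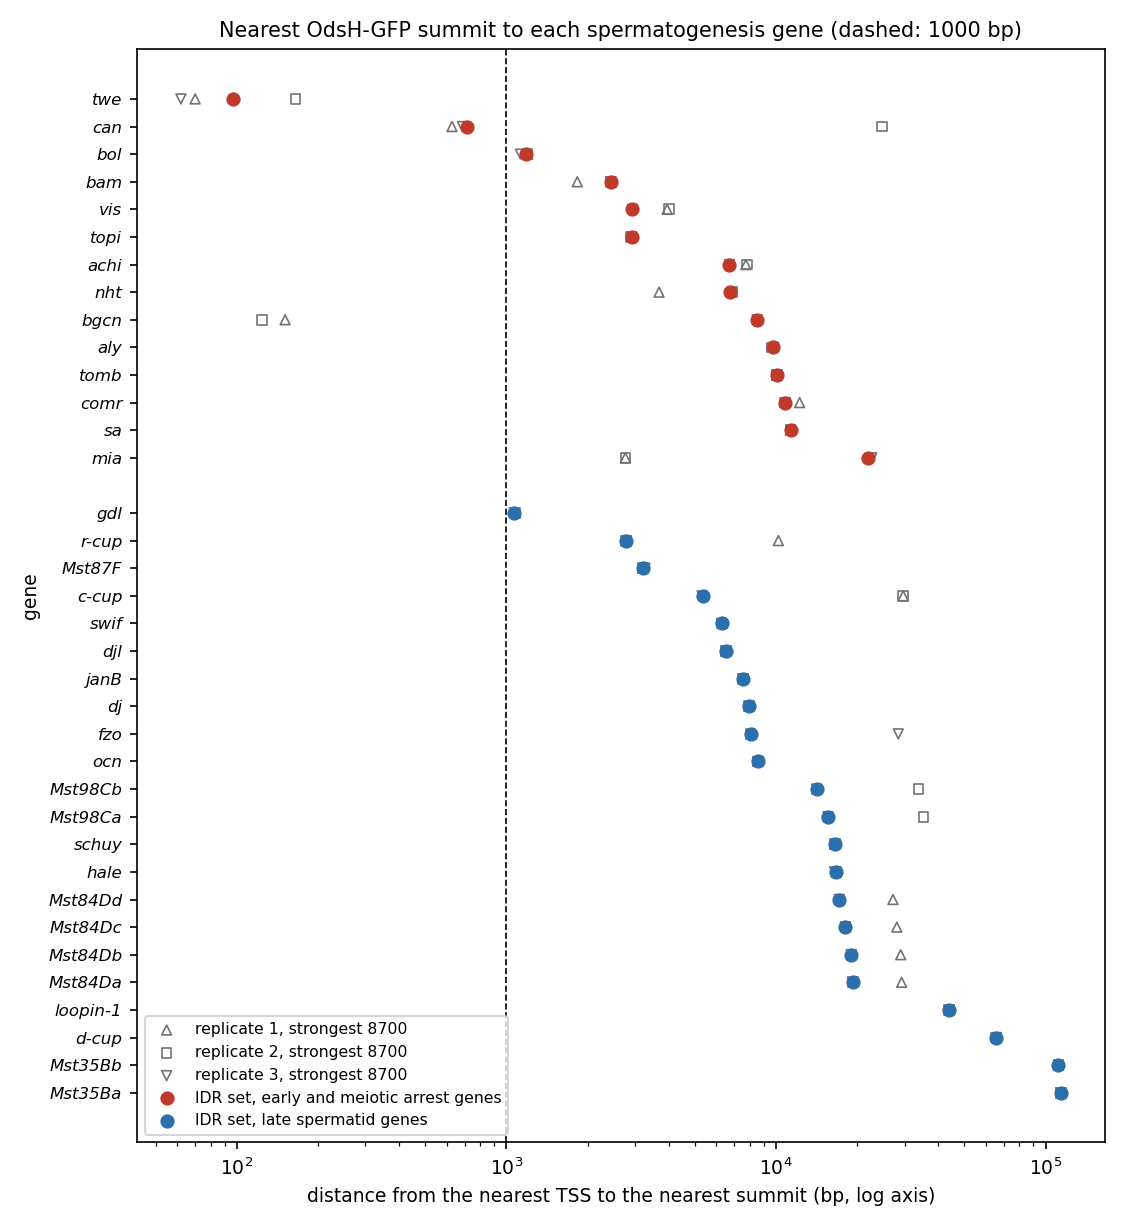
Distance from the nearest TSS to the nearest summit (horizontal log axis, bp) for each gene, in the IDR set (filled circles) and in each replicate's 8700 strongest peaks (open marks), with the early and meiotic arrest genes above the late spermatid genes. *twe* lies left of the 1000 bp line in all 4 lists, *can* in all but replicate 2 and *bgcn* only in replicates 1 and 2, and the late genes run from *gdl* at 1071 bp to *Mst35Ba* at 113633 bp.

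**Figure D4:**
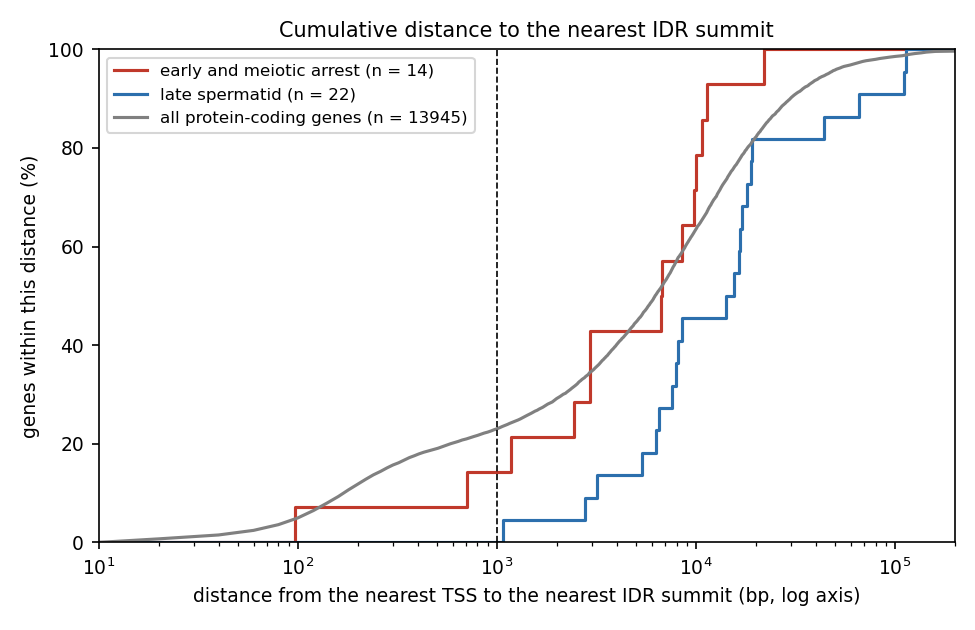
Percentage of genes (vertical axis) whose nearest IDR summit lies within a given distance of a TSS (horizontal log axis, bp), for the early genes, the late genes and all protein-coding genes. The late curve starts at 1071 bp and reaches its median at 14887 bp, against 6733 bp for the early genes and 6244 bp for all protein-coding genes. Neighbouring genes that share a nearest summit are counted separately.

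The nearest IDR summit, at whatever distance, was also assigned to the protein-coding gene whose TSS was closest to it. For *twe*, *can*, *nht*, *bol* and *Mst87F* this was the gene itself (5 of 36, or 13.9%, against 25.0% of all protein-coding genes). They were 4 of 14 early genes (28.6%) and 1 of 22 late genes (4.55%). For 19 of the 36 genes (52.8%) the summit stood within 500 bp of another protein-coding gene's TSS, at 12 separate summits, against 41.3% of all protein-coding genes. Among genes with no IDR summit within 1000 bp of a TSS these shares were 55.9% of 34 and 46.4%. The closest such summit was that of *gdl*, a gonadal gene with testis transcripts, which fell just outside the window. Its summit (signal value 856, rank 223) ranked 167, 228 and 303 in replicates 1, 2 and 3, but it lay 1071 bp upstream of *gdl* and 122 bp upstream of *CG7841*. *bam* had a summit of rank 708 at 2437 bp, which stood 32 bp upstream of the ribosomal protein gene *RpS27*. For *topi* the summit at 2928 bp was that of *RpS29*, 7 bp from its TSS. *ocn* and *janB*, neighbouring testis genes, shared a summit of rank 687 at 8559 and 7561 bp, 128 bp upstream of *RpL32*. *dj* and *djl*, which encode sperm tail proteins, shared one of rank 892 at the promoter of *CG1965*. For *swif*, a "comet and cup" gene, the nearest IDR summit was 6291 bp away. *mia* resembled *bgcn*: its nearest IDR summit was 21915 bp away, but replicates 1 and 2 each had a peak 95 and 91 bp from the TSS of the neighbour *CG2519* (ranks 3477 and 7196), 2762 and 2766 bp from *mia*, with no row in the pooled list.

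The 36 genes are not 36 separate places. Joining genes within 10000 bp of each other left 27 loci, 13 with early and 14 with late genes. The 4 *Mst84D* genes, *dj* with *djl*, *hale* with *schuy*, *Mst98Ca* with *Mst98Cb*, *ocn* with *janB*, *Mst35Ba* with *Mst35Bb* and *achi* with *vis* formed the 7 loci of several genes. The nearest IDR summits numbered 27. By chromosome arm, 16 genes lay on 3R, 13 of them late, and 1 (*r-cup*) on X, which carries 15.7% of protein-coding genes.

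Gene length and the number of TSSs also differed between the groups. The median length was 2592 bp for the early genes, 1206 bp for the late genes and 2166 bp for all protein-coding genes. A single TSS was annotated for 64.3% of early, 77.3% of late and 73.5% of all protein-coding genes. Among genes with 1 TSS, 1 of 26 spermatogenesis genes (*can*) had an IDR summit within 1000 bp, against 16.4% of all such genes. The part of gene length in these shares was not tested.

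Base composition of the promoters was measured from 250 bp before to 50 bp after the outermost TSS, on the dm6 assembly from RefSeq. The median GC content was 32.7% for the early genes, 34.5% for the late genes and 38.0% for all protein-coding genes. The 101 bp windows at all IDR summits had a mean of 31.8%. TAATTA occurred in 5 of 14 early promoters (*nht*, *twe*, *vis*, *sa* and *bam*), 1 of 22 late promoters (*djl*) and 20.4% of all promoters. TAATTG occurred in 6 of 14 early, 5 of 22 late and 25.2% of all promoters. Of the spermatogenesis genes with TAATTA only *twe* had an IDR summit within 1000 bp of a TSS. Of those with TAATTG only *twe* and *can* had one, and no other gene of the set had one at all. The share with a summit among all promoters that hold a word was not counted. The 2 words can share letters on opposite strands and were counted separately. TATCGATA, the DNA replication-related element of many housekeeping promoters, was found in 2 early promoters (*vis* and *bam*), no late one and 9.36% of all. GGTCACAC, resembling core promoter motif 1, was found at *bol* alone, against 7.70% of all. A match shows only that these letters are present in the window.

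Among further spermatogenesis genes listed for comparison, the shares with an IDR summit within 1000 bp were also below that of all protein-coding genes, but those of weaker rows were not in every case. Of 23 other early germline and meiotic genes 2 had an IDR summit within 1000 bp (8.70%, against 23.0%), *Syp* (signal value 505, rank 715) and *vas* (116, rank 5881). *Syp* encodes an RNA-binding protein and *vas* the germline helicase Vasa, and the *vas* summit was closer to a TSS of *solo*. Of 32 other late genes 3 had one (9.38%), *orb2*, *nsr* and *t-cup*, with signal values of 485, 95.6 and 80.2. Among protein-coding genes, the *orb2* summit was nearest to the TSS of *GNBP3* and the *nsr* summit to that of *CG3746*. *t-cup*, a further "comet and cup" gene, had its summit 535 bp upstream. The *nsr* and *t-cup* summits were each supported by 1 replicate, and the count was 1 of 32 (3.12%) without replicate 1, 2 or 3. Without replicate 1 or 2 the other early genes also counted 1 of 23 (4.35%). The share of all protein-coding genes was lower too, at 18.8, 18.7 and 19.5% without replicates 1, 2 and 3. Rows below the threshold lay within 1000 bp of a TSS for 9 of 23 other early genes (39.1%) and 7 of 32 other late genes (21.9%), against 25.8% of all protein-coding genes. Any pooled row was found for 43.5% of the other early genes, 25.0% of the other late genes and 38.6% of all protein-coding genes.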

How the data were processed

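Peak lists on build dm6 were used. Per the deposited file lists, the authors called each replicate's 30000 rows against 1 control alignment and made a list pooled over the replicates and an IDR set; no source used here names the aligner or the peak caller. The deposited signal value of each peak is the peak caller's own, and its scaling is not stated. Fragments of 200 to 800 bp are given in the labels. Reads were not analysed here, so depth is unknown. The 8700 IDR rows were the 8700 strongest pooled rows. Summits were the start plus the offset, 1-based. Genes and TSSs came from Ensembl release 115 (BDGP release 6), whose bounds matched RefSeq for all 36 genes, and sequence from RefSeq, the same assembly. A replicate supported an IDR peak when 1 of its 8700 strongest rows overlapped it by at least 1 bp. Lists in dm3 were not used. There is 1 group, genes are not replicates, and no test was made. Counts are set beside all protein-coding genes. Every gene of the set was named, and up to 4 genes of each further list with the strongest summit. The gene set and lists were chosen with earlier results of these data known. Of 57 names in the further lists, 2 (*nos* and *o-cup*) did not match a symbol and were left out. The counting was checked on simulated data with known summits. Python 3.11.15, pandas 2.3.3 and numpy 2.4.6 were used. Alternatives covered windows, TSS choice, peak strength, overlap and each replicate alone or left out.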

Additional observations from a re-analysis of the deposited data

How the results depend on the processing

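The count of 2 of 36 genes with an IDR summit within 1000 bp became 1 within 500 bp (against 19.0% of all protein-coding genes). It was 4 within 2000 bp (29.2%), 9 within 5000 bp (44.6%) and 4 with any base of the peak (24.1%). In the stronger 50% of the IDR peaks it was 0 (15.2%). Peaks shared by all 3 replicates gave 1 (17.7%), as did a reciprocal overlap of 50% (13.3%). Without 1 replicate the count ranged from 1 to 2 (against 18.7 to 19.5%), *can* being lost without replicate 1 or 3. Early genes gave the same values except 3, 6 and 3 for 2000 bp, 5000 bp and any base. Those were 21.4, 42.9 and 21.4% of the early genes, against 29.2, 44.6 and 24.1% of all protein-coding genes. Late genes stayed at 0 except 1, 3 and 1 in those settings (4.55, 13.6 and 4.55%). The other early genes (2) gave 6 within 2000 bp (26.1%, against 29.2%) and 11 within 5000 bp (47.8%, above the 44.6% of all protein-coding genes). They gave 4 with any base (17.4%, against 24.1%). With the outermost TSS, the stronger 50%, all 3 replicates or reciprocal overlap they gave 1 (4.35%, against 20.8, 15.2, 17.7 and 13.3%). Without 1 replicate they gave from 1 to 2 (against 18.7 to 19.5%). The other late genes (3) gave 6 within 5000 bp (18.8%, against 44.6%). In the stronger 50%, with all 3 replicates, reciprocal overlap or without any 1 replicate they gave 1 (3.12%, against 13.3 to 19.5%). Replicate 2 alone and at least 2 replicates also gave 1 (against 25.4 and 25.5%). Gene bodies (1 of 36) gave 2 in replicates 1 and 2 alone (5.56%, against 16.0 and 15.5%), *bgcn* being added. They gave 3 with 1000 bp upstream (8.33%, against 26.9%) and 1 without any 1 replicate (2.78%, against 12.5 to 13.0%). Rows below the threshold (6) gave 15 within 5000 bp (41.7%, against 53.4%), 3 in the stronger 50% of those rows (8.33%, against 17.7%) and 3 without any 1 replicate (against 14.0 to 17.6%). The median distance of 8538 bp became 14133 bp in the stronger 50%, 11798 bp with all 3 replicates, 13217 bp with reciprocal overlap and 9161, 9126 and 9184 bp in replicates 1, 2 and 3 alone, and ranged from 10131 to 10770 bp without 1 replicate. In each of these lists it was above the median of all protein-coding genes. Other causes of these changes were not tested. Sequencing depth is unknown, so a gene without a row was not detected in these lists. No paired analysis was possible because there is 1 group.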

Other observations

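The pooled list lacked rows that several replicates ranked highly. Of the 8700 strongest rows, 611, 448 and 375 in replicates 1, 2 and 3 had no overlapping pooled row, and 393, 340 and 242 of these were overlapped by another replicate's 8700 strongest. In all 3 replicates 104, 104 and 105 such rows were found. Across the annotation, 556 protein-coding genes had TSSs within 1000 bp of a summit in at least 2 replicates' strongest rows and none in the IDR set, and 452 of them had no pooled row there at all. *bgcn* was the only spermatogenesis gene among them.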
